A study of Rattus norvegicus with 4 samples.

Results

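The 10 smooth muscle contractile genes Acta2, Myh11, Actg2, Tagln, Cnn1, Des, Myl9, Lmod1, Pln and Smtn were followed across cell types of the irradiated rat esophagus. They were taken by symbol, each symbol was found once, and they are 10 of the 30017 symbols counted. They were listed by symbol and not by a rule on measured values, but with earlier results of these data known. The study profiled single cells of the esophagus from male Sprague-Dawley rats aged 6 weeks, with X-rays given to the esophageal region. There were 4 libraries, each made from 1 pool of 5 rats: 1 × 35 Gy at day 7 (single dose), 5 × 7 Gy at day 7 (fractionated, day 7), 5 × 7 Gy at day 14 (fractionated, day 14) and 5 × 0 Gy at day 7 (control). No control of day 14 was among them, so the day-14 library is set against the control of day 7, and dose and time cannot be told apart in that pair.

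Smooth muscle shortens when thick filaments of smooth muscle myosin pull on thin filaments of actin. Calcium entering the cell activates myosin light chain kinase, which phosphorylates the regulatory light chain and so starts the cycle, and a phosphatase ends it. Most of these genes are under serum response factor and its partner myocardin, and are also used by pericytes around small vessels and by myofibroblasts in wounds. In rodents the outer muscle coat of the esophagus is mostly skeletal, so smooth muscle cells sit mainly in the thin muscle layer of the mucosa and in vessel walls.

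The promoter of Acta2 is shown because serum response factor is known to bind CArG boxes, and those of the Acta2 promoter are textbook examples. The sequence is the 250 bases before the RefSeq start of Acta2 on the minus strand, chr1:241172504-241172753 of build GRCr8, with CArG-like boxes in capitals.

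Acta2 promoter: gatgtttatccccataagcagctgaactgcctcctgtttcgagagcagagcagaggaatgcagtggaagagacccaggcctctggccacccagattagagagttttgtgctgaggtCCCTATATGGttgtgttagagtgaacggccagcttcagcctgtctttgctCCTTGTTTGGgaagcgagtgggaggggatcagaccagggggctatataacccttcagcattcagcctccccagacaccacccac

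A CArG-like box was searched as CC, then 6 bases with at most 1 G or C, then GG, a pattern that reads alike on both strands. The boxes of Acta2 lie at 134 to 125 and 84 to 75 bases before the start. Of the 10 genes 6 were in the RefSeq promoter table (Acta2, Actg2, Cnn1, Des, Pln and Smtn), and only Acta2 of these 6 had a box in its window of 250 bases before to 50 after the start. At least 1 box was present in 9.42% of all 33469 promoters in the table, and at least 2 in 0.846%. These letters describe the windows and say nothing of binding. The counts below were made on another build, so no coordinate of the 2 is mixed.

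The libraries held 10468 to 12505 barcodes and 59805782 to 109618791 UMIs, and 39334 cells were kept in all. The percentage of barcodes above 20% mitochondrial UMIs was 15.2 after the single dose, 16.6 and 3.71 after fractionation at days 7 and 14, and 5.49 in the control. Of all barcodes, 187 occurred in more than 1 library. Clusters were built without the 10 genes and named from other markers. Smooth muscle cells were 1 cluster with 14 of its 16 marker genes at least 2-fold above other cells, led by Map3k7cl, Rergl and Pcp4l1. Pericytes were 1 cluster led by Ccl19, Vtn, Kcnj8, Rgs5 and Higd1b, and fibroblasts were 4 clusters. Values are CPM, the UMIs of a gene summed over the cells of a class in a library and scaled per 1e6 UMIs of that sum. The assay counts transcripts at the 3′ end, so levels are compared between libraries and cell types for a gene and not between genes. With 1 pool per group there are no replicates and no test. Brackets give 95% intervals that cover counting error only, and "higher" or "lower" is a statement about these libraries. An absolute log2 ratio of at least 1 is called 2-fold.

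The 10 genes were concentrated in the smooth muscle and pericyte classes. Together, smooth muscle cells and pericytes held 84.2% of all UMIs of the 10 genes in the single-dose library, 84.9% in the fractionated day-7 library, 74.2% in the fractionated day-14 library and 69.3% in the control. Fibroblasts held 0.374% in the single-dose library, 0.470% and 8.06% in the fractionated libraries of days 7 and 14, and 9.03% in the control. Cells named as fibroblasts numbered only 80 in the single-dose library and 56 in the fractionated day-7 library. At day 14 there were 3351, and 3682 in the control. A further cluster, with 599 single-dose cells, scored highest for fibroblast markers, stayed unnamed and is not counted among them. The shares of UMIs thus follow cell numbers and naming as well as levels per cell. After thinning every cell to 1000 UMIs, at least 3 of the 10 genes were detected in 99.4% of single-dose smooth muscle cells, 100% and 99.8% of fractionated ones at days 7 and 14, and 99.7% of control ones. In epithelial cells, which should lack them, the shares were 0.631% after the single dose, 0.129% and 1.68% after fractionation at days 7 and 14, and 0.203% in the control.

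Not every gene followed this distribution. Lmod1, a leiomodin that nucleates actin filaments, had 51.4% of its UMIs in fibroblasts of the fractionated day-14 library and 56.6% in those of the control. Smtn, which encodes smoothelin, a protein of contractile actin bundles, had 43.3% of its UMIs in epithelium of the single-dose library and 47.2% in epithelium of the fractionated day-7 library, against 2.74% in epithelium at day 14 and 11.6% in the control. At day 14 40.5% of the UMIs of Smtn were in fibroblasts, against 24.2% in the control. Pln, which encodes phospholamban, had 25.8% and 23.7% of its UMIs in epithelium of the single-dose and fractionated day-7 libraries, against 2.79% at day 14 and 4.24% in the control. Epithelial cells numbered 3237 in the single-dose library, 6373 in the fractionated day-7 library, 435 at day 14 and 2514 in the control. A share depends on cell numbers and levels in every class, so the epithelial shares of Smtn and Pln do not give their epithelial levels. Fibroblasts held 0.471% of the UMIs of Smtn in the single-dose library and 2.15% in the fractionated day-7 library, against 24.2% in the control. Pln in epithelium was at 4.80 CPM after the single dose and 6.37 CPM after fractionation at day 7, against 33.5 CPM at day 14. In the control it was at 2.62 CPM. At day 14, 5 epithelial cells held 50% of the UMIs of the contractile genes in that class. Des, the muscle intermediate filament desmin, had 0.731% to 1.55% of its UMIs in satellite cells, the stem cells of skeletal muscle, of the irradiated libraries, against 24.1% in those of the control. Satellite cells numbered 86, 78 and 82 in the single-dose, fractionated day-7 and day-14 libraries, and 795 in the control.

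**Figure D1:**
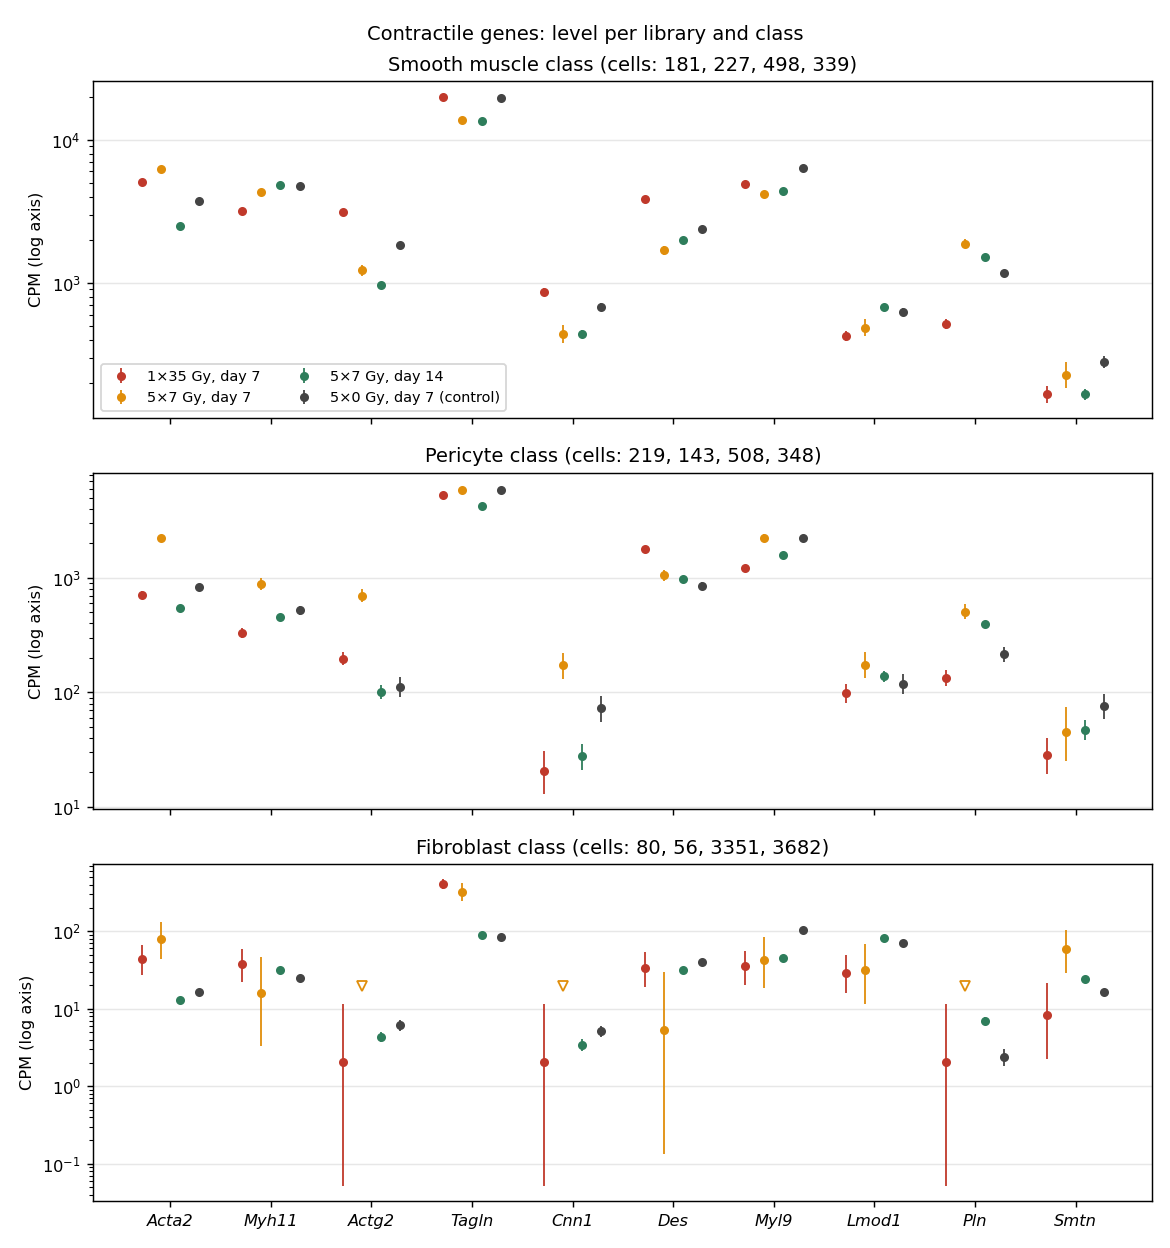
CPM of the 10 genes in smooth muscle cells, pericytes and fibroblasts of each library, on a log axis, with bars for the exact 95% Poisson counting interval. Every gene is highest in smooth muscle cells among the 3 classes in each library; Acta2 in smooth muscle cells reaches 6230.3 CPM in the fractionated day-7 library, against 3729 CPM in the control.

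Smooth muscle cells numbered 181 in the single-dose library, 227 in the fractionated day-7 library, 498 in the fractionated day-14 library and 339 in the control. The 10 genes summed to 41930.2 CPM after the single dose, 34322 CPM after fractionation at day 7 and 31023 CPM at day 14, against 41454.1 CPM in the control. Within that near-equal or lower sum the genes separated: the single-dose cells had more of both smooth muscle actins and of desmin and less phospholamban, the fractionated day-7 cells had more Acta2 and phospholamban but less of 7 others, and the day-14 cells had less actin of both kinds. In each library the smooth muscle markers outside the 10 genes summed to 11852 CPM or more. Pericyte markers in the same cells summed to 2587, 4345 and 3570.1 CPM in the irradiated libraries and 2565 CPM in the control.

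Acta2, alpha smooth muscle actin of vessels and myofibroblasts, was at 5055 CPM after the single dose, 6230.3 CPM after fractionation at day 7, 2489 CPM at day 14 and 3729 CPM in the control. It was highest in the fractionated day-7 library, which was 1.67-fold above the control [1.60 to 1.75], and the single-dose library was 1.36-fold above it [1.31 to 1.40]. The day-14 library was below the control, with a log2 ratio of -0.58 [-0.63 to -0.53]. Actg2, gamma smooth muscle actin, which is typical of gut muscle, was at 3128 CPM after the single dose, 1229 CPM after fractionation at day 7, 963 CPM at day 14 and 1852 CPM in the control. The order of the libraries was thus another one for Actg2: the single-dose value was 1.69-fold higher than the control [1.61 to 1.77], and the fractionated values were 1.51-fold lower at day 7 [1.37 to 1.66] and 1.92-fold lower at day 14 [1.83 to 2.02]. The day-14 log2 ratio of -0.94 passed 2-fold with every cell weighted equally, at -1.04, and under median-of-ratios scaling, at -1.08, and was -0.48 without the Rgs5-rich sub-cluster described below. Fractionated and single-dose cells of day 7 differed 2.54-fold in Actg2, lower in the fractionated library [2.32 to 2.79].

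The motor genes Myh11 and Myl9 stayed within 2-fold of the control in each irradiated library. Myh11, the smooth muscle myosin heavy chain, was at 3162 CPM after the single dose, 4302 and 4846 CPM after fractionation at days 7 and 14, and 4735 CPM in the control. Its log2 ratio over the control was -0.58 after the single dose [-0.64 to -0.53] and 0.03 at day 14 [-0.01 to 0.07]. Myl9, the regulatory light chain that myosin light chain kinase phosphorylates, was at 4925 CPM after the single dose, 4201 and 4385 CPM after fractionation at days 7 and 14, and 6366 CPM in the control. It was lower than the control in each irradiated library, 1.29-fold after the single dose and 1.52-fold and 1.45-fold after fractionation at days 7 and 14.

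Among the genes of actin-bound proteins, Tagln and Cnn1 were lower than the control after fractionation and not after the single dose, and Smtn was lower after the single dose too. Tagln, transgelin, an early smooth muscle protein that bundles actin, was at 19839.6 CPM after the single dose, 13630.4 and 13533 CPM after fractionation at days 7 and 14, and 19637.9 CPM in the control. The single-dose and control values of Tagln were within counting error of each other, with a log2 ratio of 0.01 [-0.01 to 0.04], and the fractionated values were 1.44-fold below the control at day 7 and 1.45-fold at day 14. Cnn1, calponin, which restrains the myosin motor, was at 868 CPM after the single dose, 442 and 442 CPM after fractionation at days 7 and 14, and 683 CPM in the control. Its log2 ratio to the control was 0.35 [0.22 to 0.47], -0.63 [-0.86 to -0.40] and -0.63 [-0.74 to -0.51] after the single dose and after fractionation at days 7 and 14. Smtn was lower than the control after the single dose, with 167 CPM against 279.99 CPM, and at day 14, also with 167 CPM. At day 7 of fractionation Smtn was at 229 CPM, and its log2 ratio of -0.29 had an interval that included 0 [-0.62 to 0.03].

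Lmod1 was at 425 CPM after the single dose, 487 and 683 CPM after fractionation at days 7 and 14, and 623 CPM in the control. Relative to the control it was 1.47-fold lower after the single dose [1.32 to 1.63], and its log2 ratio at day 14 was 0.13 [0.02 to 0.24], which was lost under median-of-ratios scaling. Des was at 3840.4 CPM after the single dose, 1688 and 2003 CPM after fractionation at days 7 and 14, and 2370 CPM in the control. The single-dose library alone was above the control in Des, 1.62-fold [1.55 to 1.69], and the fractionated day-7 cells were 2.28-fold below the single-dose cells [2.10 to 2.47].

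Pln, phospholamban, which holds back the calcium pump of the sarcoplasmic reticulum, was at 518 CPM after the single dose, 1883 and 1511 CPM after fractionation at days 7 and 14, and 1178 CPM in the control. The single-dose library was the lowest of the 4 and both fractionated libraries were above the control. Pln was 2.27-fold lower after the single dose than in the control [2.08 to 2.49], and was the only one of the 10 past 2-fold in any comparison of smooth muscle cells with the control. With every cell weighted equally its log2 ratio was -0.70, and over all alternatives it was between -0.70 and -1.49. Fractionated cells of day 7 had 3.63-fold more Pln than single-dose cells [3.27 to 4.03], with log2 ratios of 1.38 to 2.03 over the alternatives.

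**Figure D2:**
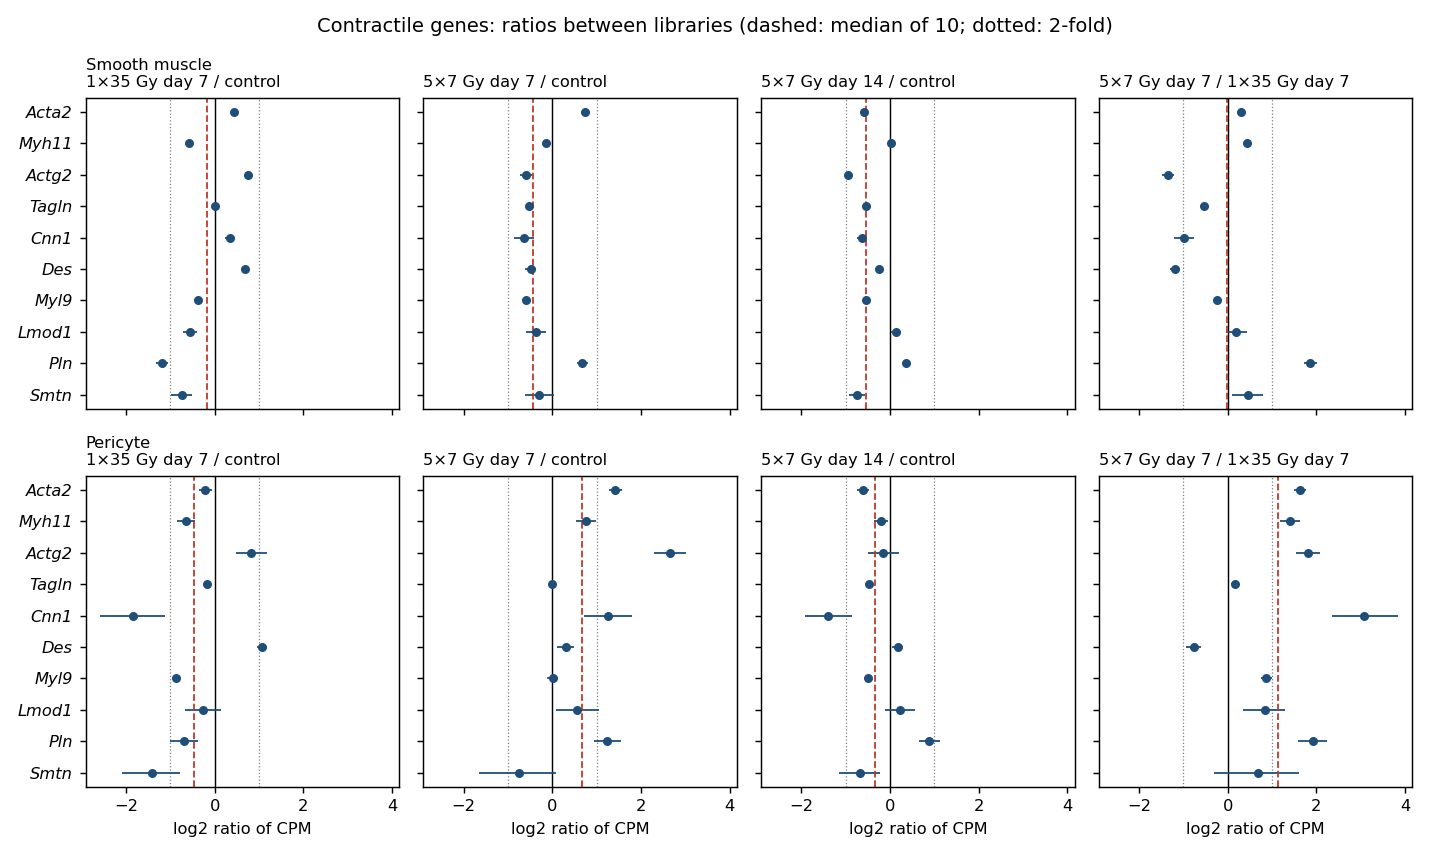
Log2 ratio of CPM for each of the 10 genes in smooth muscle cells and pericytes, with 95% counting intervals and lines at 2-fold. In smooth muscle cells Pln lies at -1.18 for the single dose over the control and at 1.86 for the fractionated day-7 library over the single dose.

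Counted over the 10 genes in smooth muscle cells, 0 were higher by 2-fold and 1 was lower by 2-fold after the single dose than in the control, where 8.39% and 9.55% of the 7675 symbols measured in that pair were. Their median log2 ratio was -0.18, and that of all symbols 0.12. For fractionation at day 7 over the control, 0 were 2-fold higher and 0 were 2-fold lower, beside 8.86% and 11.8% of 6794 symbols, with medians of -0.42 for the 10 genes and 0.02 for all. At day 14 both counts were again 0, beside 8.81% and 2.44% of 8937 symbols, and the medians were -0.54 and 0.13. In the fractionated day-7 library over the single dose 1 was higher (Pln) and 2 were lower (Actg2 and Des), beside 9.59% and 15.6% of 6404 symbols, with medians of -0.02 and -0.10. These counts stay near or below the background of each pair. The 3 comparisons with the control share that control.

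Other features of the smooth muscle cells moved with the libraries. Median depth per cell was 5667 UMIs after the single dose, 1562 after fractionation at day 7 and 5738.5 at day 14, against 4546 in the control. Of the 20 immediate-early and heat-shock genes listed, 19 were at least 2-fold lower after the single dose and 19 after fractionation at day 7 than in the control, with medians of -2.93 and -4.37, and 0 at day 14. Fos, an immediate-early gene, was at 878 CPM after the single dose, 57.3 CPM after fractionation at day 7, 12677 CPM at day 14 and 13383 CPM in the control. Epithelial markers in the class summed to 468, 711 and 65.9 CPM in the irradiated libraries and to 269.5 CPM in the control. Macrophage markers summed to 405 CPM after the single dose, 38.2 and 222 CPM after fractionation at days 7 and 14, and 54.2 CPM in the control. Their part in the results was not tested.

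Sub-clustering of the smooth muscle cells, again without the 10 genes, followed the libraries: 160 of 172 cells of a sub-cluster came from the single-dose library, 211 of 231 of another from the fractionated day-7 library, 245 of 256 from the day-14 library and 296 of 299 from the control. A further sub-cluster, rich in the pericyte gene Rgs5, held 247 of the 498 cells of day 14, 3 single-dose cells, 1 fractionated day-7 cell and 36 control cells. In its day-14 cells Acta2 was at 1852 CPM, Actg2 at 374 CPM and Cnn1 at 134 CPM, and the 10 genes summed to 24812 CPM. The other 251 day-14 cells had 2984 CPM of Acta2, 1421 CPM of Actg2 and 682 CPM of Cnn1, and a sum of 35851 CPM. The Rgs5-rich control cells had 2019.9 CPM of Acta2, 647 CPM of Actg2 and 84.2 CPM of Cnn1, and the other control cells 3909, 1979 and 746 CPM. Day-14 values of Acta2, Actg2 and Cnn1 were thus lower than control values outside this sub-cluster. Without it the log2 ratio of Acta2 at day 14 was -0.39, against -0.58 with it, and the median over the 10 genes was -0.26, against -0.54.

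Across single smooth muscle cells thinned to 1000 UMIs, Acta2 was detected in 94.4% of single-dose cells, 98.5% and 85.9% of fractionated cells at days 7 and 14, and 91.6% of control cells. The order is that of the CPM of Acta2. Without thinning the shares were 99.4% after the single dose, 98.2% and 99.2% after fractionation at days 7 and 14, and 99.1% in the control. In epithelial cells thinned alike, Acta2 was detected in 0.631% after the single dose, 0.419% and 1.44% after fractionation at days 7 and 14, and 0.892% in the control. Median depths of these epithelial cells before thinning were 18399, 6662 and 13123 UMIs in the 3 irradiated libraries and 15176 UMIs in the control. Correlations between the 10 genes within smooth muscle cells were weak, with medians over the 45 pairs of 0.20 after the single dose, 0.15 and 0.13 after fractionation at days 7 and 14, and 0.15 in the control. Tagln and Myl9 had r values of 0.54, 0.53 and 0.43 in the irradiated libraries and 0.47 in the control. The cells share a library, and their counts are sparse.

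Pericytes wrap capillaries and small vessels and carry a partial contractile set. They numbered 219 in the single-dose library, 143 and 508 in the fractionated libraries of days 7 and 14, and 348 in the control. The 10 genes summed to 9799.8 CPM after the single dose, 13855 and 8527 CPM after fractionation at days 7 and 14, and 10910.1 CPM in the control. The fractionated day-7 pericytes stood out by both actins, calponin and phospholamban, each over 2-fold above the control; for Acta2 the size, and for Actg2 and Cnn1 also the direction, depended on which contractile sub-clusters, described below, were counted. Single-dose pericytes had over 2-fold more Des and less Cnn1 and Smtn than the control.

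Acta2 in pericytes was at 715 CPM after the single dose, 2217 CPM after fractionation at day 7, 547 CPM at day 14 and 828 CPM in the control. The fractionated day-7 value was 2.68-fold above the control [2.41 to 2.97], and the single-dose and day-14 values were below it, 1.16-fold and 1.51-fold. At day 14 the log2 ratio was -0.60, but it was 0.23 where cells were classed by their own markers and 0.25 without the 2 sub-clusters described below. For the single dose it was -0.21, and 0.16 with every cell weighted equally and 1.39 by own markers. Actg2 was at 198 CPM after the single dose, 698 CPM after fractionation at day 7, 101 CPM at day 14 and 112 CPM in the control, so it was 6.26-fold higher at day 7 of fractionation than in the control [4.92 to 8.02]. The single-dose log2 ratio of Actg2 was 0.83 [0.48 to 1.19], and -1.04 where the wider lists were left out of clustering. Cnn1, with 23 to 63 UMIs per library, was at 20.4 CPM after the single dose, 172 and 27.7 CPM after fractionation at days 7 and 14, and 72.4 CPM in the control. Its log2 ratio to the control was -1.83 after the single dose [-2.58 to -1.12], 1.25 after fractionation at day 7 [0.71 to 1.79] and -1.39 at day 14 [-1.92 to -0.86]. The single-dose value was 1.75 where cells were classed by their own markers, and the day-14 value -0.13 without the 2 sub-clusters.

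Des in pericytes was at 1799 CPM after the single dose, 1057 and 970.4 CPM after fractionation at days 7 and 14, and 858 CPM in the control. The single-dose value was 2.10-fold above the control [1.93 to 2.28], with log2 ratios of 0.81 to 1.66 over the alternatives. Pln was at 134 CPM after the single dose, 507 and 397 CPM after fractionation at days 7 and 14, and 215 CPM in the control. As in smooth muscle cells, the order of the libraries in Pln was single dose lowest, control next and fractionated day 7 highest. Pln was 2.36-fold higher at day 7 of fractionation than in the control [1.91 to 2.92], 1.85-fold higher at day 14 [1.57 to 2.17], and 1.61-fold lower after the single dose, where the log2 ratio of -0.68 lay between -0.92 and 0.27 over the alternatives. Its log2 ratio for fractionation at day 7 was 1.24 and lay between 1.07 and 2.09 under every alternative. Smtn was at 28.4 CPM after the single dose, 45.3 and 47.2 CPM after fractionation at days 7 and 14, and 75.9 CPM in the control, 2.67-fold lower after the single dose [1.73 to 4.22] and with log2 ratios of -0.74 to -1.83 over the alternatives.

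The remaining genes differed less in pericytes. Tagln was at 5251, 5859.7 and 4265 CPM in the single-dose, fractionated day-7 and day-14 libraries, and at 5881 CPM in the control. Myl9 was at 1222, 2241 and 1581 CPM in the same irradiated libraries and at 2230.1 CPM in the control, so that the single dose was 1.82-fold lower [1.70 to 1.96]. Myh11 was at 333 CPM after the single dose, 882 and 452 CPM after fractionation at days 7 and 14, and 521 CPM in the control. Lmod1 lay between 98.4 and 175 CPM in the 4 libraries.

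Of the 10 genes in pericytes, 1 was higher by 2-fold and 2 were lower by 2-fold after the single dose than in the control, where 9.35% and 10.7% of 7274 symbols were; the medians were -0.46 for the 10 genes and 0.06 for all symbols. For fractionation at day 7, 4 were higher and 0 lower, beside 11.9% and 12.3% of 5962 symbols, with medians of 0.66 and 0.05. At day 14, 0 were higher and 1 was lower (Cnn1), beside 8.19% and 3.26% of 8550 symbols, with medians of -0.33 and 0.10. In the fractionated day-7 library over the single dose, 5 were higher and 0 lower, beside 13.7% and 15% of 6444 symbols, with medians of 1.14 and -0.02. The share of the 10 genes past 2-fold was above the background in both comparisons of the fractionated day-7 pericytes.

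Counted without thinning, the contractile genes sat in a smaller share of pericytes than of smooth muscle cells. In the single-dose library 21.0% of smooth muscle cells held 50% of the UMIs of the 10 genes in that class. The share was 24.7% and 25.7% after fractionation at days 7 and 14, and 25.7% in the control. In the single-dose library 28 of 219 pericytes held 50% of all UMIs of the 10 genes in the class, and 18 of 143 and 69 of 508 did so in the fractionated libraries of days 7 and 14, against 29 of 348 in the control. Of the 143 fractionated day-7 pericytes 53 formed a sub-cluster led by Eln, Kcnk3, Itga8, Chrdl1 and Pdgfc, against 7 of the single-dose pericytes, 1 of the day-14 and 1 of the control pericytes. Eln encodes elastin, the elastic protein of vessel walls. In these 53 cells Acta2 was at 4659.9 CPM, Actg2 at 1874 CPM, Cnn1 at 473 CPM, Myh11 at 1891 CPM and Tagln at 12303 CPM. Their level of Acta2 lay in the range of the 4 libraries' smooth muscle cells, while Des was at 1040.3 CPM, Pln at 370 CPM and Rgs5 at 353 CPM. They also had 2244 CPM of Col1a1 and 2493 CPM of Dcn, fibroblast genes for collagen and decorin.

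The other 90 fractionated day-7 pericytes had 894 CPM of Acta2, 60.5 CPM of Actg2, 9.31 CPM of Cnn1 and 2207 CPM of Rgs5. Without the 53 cells and their sub-cluster, the log2 ratio to the control was 0.12 for Acta2, -0.81 for Actg2 and -2.89 for Cnn1, and the median over the 10 genes was -0.47. The day-14 and control pericytes had a contractile sub-cluster of their own, with 68 day-14 cells, 67 control cells and 0 cells of the other libraries, led by Ch25h, Vsnl1, Rarres1 and Fst. Its day-14 cells had 999 CPM of Acta2, 80.6 CPM of Cnn1 and 9139.5 CPM of Tagln, against 1744, 175 and 12428 CPM in its control cells. With both sub-clusters left out, the log2 ratio for fractionation at day 7 was 1.30 for Acta2, 0.13 for Actg2 and 1.45 for Pln, and the median was 0.52. The comparison of Acta2 and Actg2 in pericytes therefore turns on which of these cells are counted, and that of Pln does not.

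**Figure D3:**
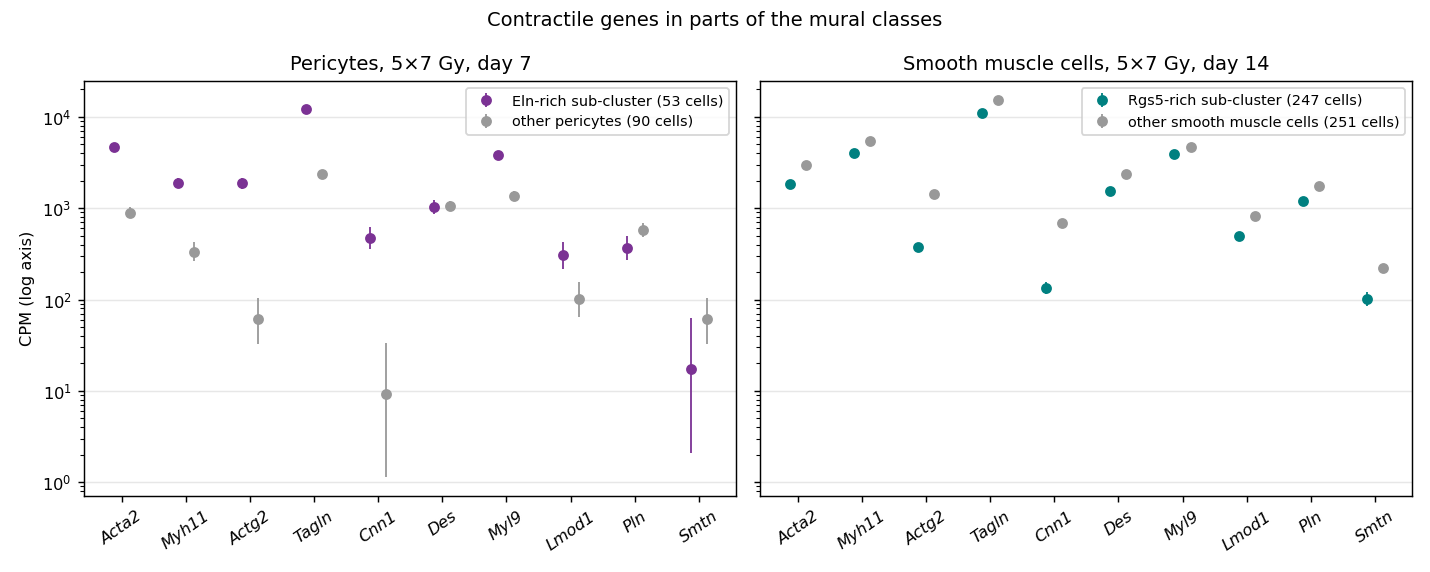
CPM of the 10 genes in parts of the pericyte class and of the smooth muscle class, on a log axis. The 53 Eln-rich pericytes of the fractionated day-7 library hold 4659.9 CPM of Acta2, against 894 CPM in the other 90.

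Markers and depth differed between the pericytes of the libraries. Median depth was 4307 UMIs after the single dose, 1837 and 3583 after fractionation at days 7 and 14, and 1707 in the control. Pericyte markers summed to 5418 CPM after the single dose, against 9642 CPM in the control, and were at 9077 and 8948 CPM in the fractionated libraries. Fibroblast markers summed to 14728 CPM at day 7 of fractionation, against 10027 CPM in the control. Of the immediate-early and heat-shock genes measured, 18 of 19 were at least 2-fold lower after the single dose and 19 of 19 after fractionation at day 7, and 0 at day 14. The part of each of these in the results was not tested. A cluster holding both pericyte and blood endothelial markers was left unnamed; counting its 46 single-dose, 35 fractionated day-7, 325 day-14 and 295 control cells as pericytes brought the median over the 10 genes to 0.33 after the single dose, 1.24 at day 7 of fractionation and 0.20 at day 14.

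**Figure D4:**
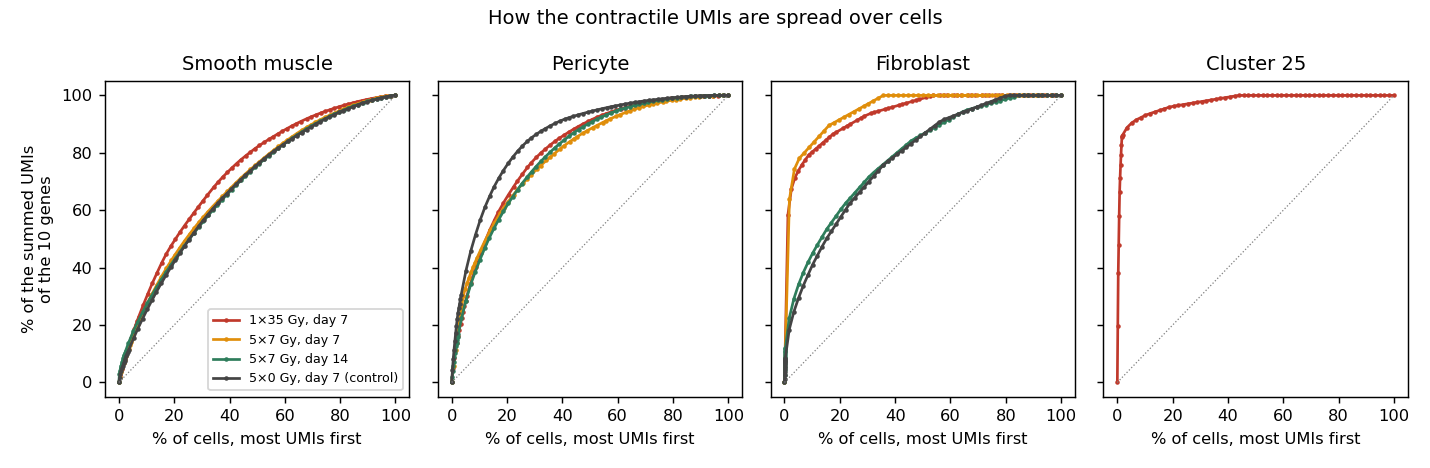
Share of all UMIs of the 10 genes held by the cells of a class, ranked from the cell with the most. In single-dose fibroblasts 1 of 80 cells holds 58.5%, and in pericytes 28 of 219 single-dose cells hold 50%, against 29 of 348 control cells.

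Fibroblasts, which build the connective tissue matrix and can turn into contractile myofibroblasts marked by Acta2, held little of the 10 genes. They summed to 598 CPM after the single dose, 555 and 329.9 CPM after fractionation at days 7 and 14, and 367 CPM in the control. Acta2 was at 43.5 CPM after the single dose, 79.3 CPM after fractionation at day 7, 12.97 CPM at day 14 and 16.2 CPM in the control, from 21, 15, 486 and 442 UMIs. Tagln was at 406, 322 and 88.6 CPM in the irradiated libraries and at 83.9 CPM in the control. The log2 ratio of Acta2 to the control was 1.42 after the single dose [0.72 to 2.05] and 2.29 after fractionation at day 7 [1.44 to 3.03], and that of Tagln 2.27 [2.05 to 2.48] and 1.94 [1.55 to 2.31].

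Each of the 2 day-7 values came largely from 1 cell. In the single-dose library 1 of 80 fibroblasts held 58.5% of the UMIs of the 10 genes, and in the fractionated day-7 library 1 of 56 held 63.8%. Without that cell Acta2 was at 19.1 and 16.8 CPM, against 16.2 CPM in the control, and Tagln at 104 and 56.0 CPM. The single-dose cell had 147 UMIs of Tagln, 12 of Acta2, 30 of Dcn and 34 of Col1a1. The fractionated day-7 cell had 51 UMIs of Tagln, 12 of Acta2, 117 of Lox, the enzyme that crosslinks collagen, and 190 of Dcn. Both cells had 0 UMIs of Rgs5, Myh11 and Des.

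Few of the 10 genes in fibroblasts were above a background set from other classes as a guide to free RNA. The background was the highest level among epithelial cells, macrophages or monocytes, blood endothelial cells and glia of the same library. A class needed at least 100 cells. At day 7 of fractionation macrophages or monocytes had 69 cells and glia 66, so both were left out there. Such a background can hold transcripts of the highest class itself as well as free RNA. Smtn in the control was at 45.9 CPM in blood endothelial cells, against 4.67 CPM in the lowest of these classes. Above the background with their interval were 3 of 10 genes after the single dose, 4 at day 7 of fractionation, 1 at day 14 and 2 in the control. Lmod1 was above it in every library, 18.0-fold after the single dose, 29.0-fold and 11.2-fold after fractionation at days 7 and 14, and 7.32-fold in the control. The 29.0-fold value rests on 6 UMIs [6.19 to 179]. The level of Lmod1 itself was lower than the control in both day-7 irradiated libraries. It was at 29.0 CPM after the single dose and 31.7 CPM after fractionation at day 7, against 70.2 CPM in the control. The log2 ratios were -1.28 [-2.15 to -0.53] and -1.15 [-2.59 to -0.02]. Acta2 was 2.30-fold and 4.72-fold above the background in the single-dose and fractionated day-7 libraries, and at 0.677 and 0.630 times the background at day 14 and in the control. Those single-dose and day-7 values of Acta2 and Tagln include the 1 cell of each library described above. Without it Acta2 was at 19.1 and 16.8 CPM, beside backgrounds of 18.9 and 16.8 CPM, and Tagln at 104 and 56.0 CPM, beside backgrounds of 93.4 and 33.9 CPM. Among fibroblasts thinned to 1000 UMIs, 0 of 76 single-dose cells and 0 of 48 fractionated day-7 cells had 3 or more of the 10 genes, which allows shares of up to 3.95% and 6.25%. The shares were 1.00% at day 14 and 0.796% in the control. These shares and limits concern cells with UMIs of the genes at this depth, not cells that express them.

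**Figure D5:**
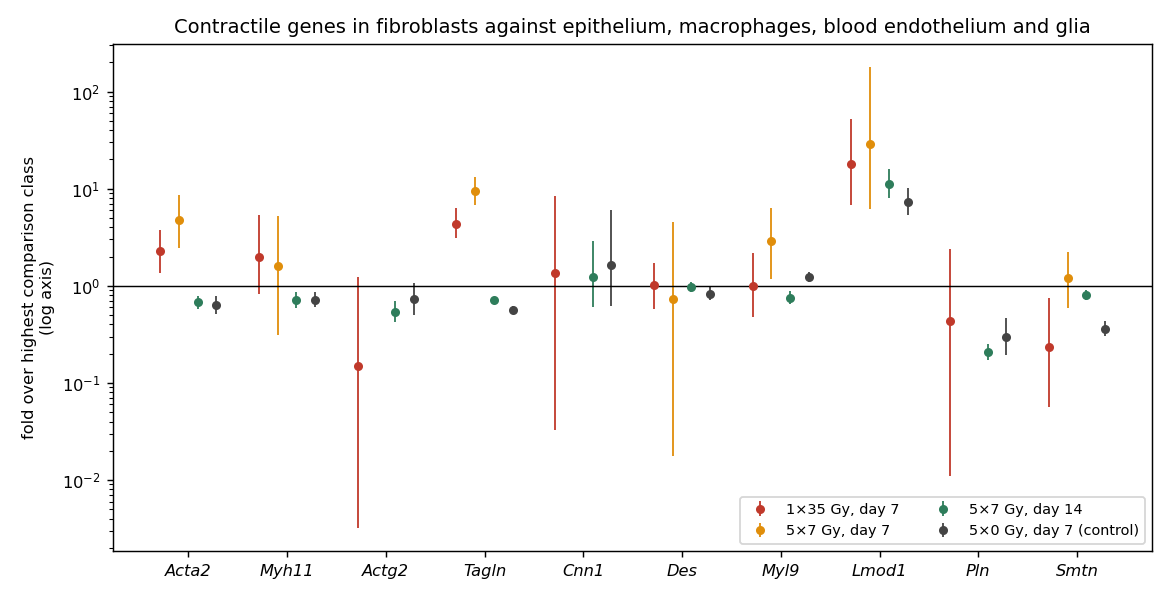
Fold of the CPM of each gene in fibroblasts over its highest CPM in the comparison classes of the same library, on a log axis, with a line at equality. Lmod1 lies above the line in all 4 libraries, and Acta2 lies below it at day 14 and in the control.

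The day-14 fibroblasts, with 3351 cells, were compared with the control at similar cell numbers, but different clusters held most of the class. At day 14, 2054 cells were in a cluster led by Ccn5 and Dkk2 that had 32 control cells, and 1177 were in one led by Cilp that had 2565 control cells. A further 1046 control cells were in a cluster led by Postn and Gap43, against 81 at day 14. Over the whole class Myl9 was at 44.6 CPM at day 14, against 102 CPM in the control, or 2.29-fold lower [2.16 to 2.44], with log2 ratios of -0.95 to -1.28 over the alternatives. Pln was at 6.97 CPM, against 2.38 CPM in the control, 2.92-fold higher [2.22 to 3.90], both under the level of the comparison classes. Within the shared Cilp-led cluster Myl9 was at 88.1 CPM at day 14, against 131 CPM in the control, and Pln at 7.39 CPM, against 2.57 CPM. Acta2 there was at 23.7 CPM at day 14, against 19.9 CPM in the control, Tagln at 172 CPM, against 109 CPM, and Myh11 at 53.2 CPM, against 29.7 CPM, so that Acta2 had the direction opposite to that of the whole class. Over the whole class the other 8 had log2 ratios between -0.58 and 0.54. After the single dose 7 of the 10 could be measured in fibroblasts, with 2 at least 2-fold higher and 3 lower than in the control, beside 7.26% and 8.67% of all symbols, and medians of -0.26 and 0.13. At day 7 of fractionation 7 were measured, with 3 higher and 3 lower, beside 13.1% and 17.6%, and medians of -0.65 and -0.06. At day 14 all 10 were measured, with 1 higher and 1 lower, beside 9.72% and 3.82%, and medians of -0.12 and 0.09. Between the day-7 irradiated libraries 5 were measured, with 0 higher and 1 lower, beside 9.59% and 16.4%, and medians of 0.13 and -0.12. Median depth of these fibroblasts was 4939.5 UMIs after the single dose, 2821.5 and 10083 after fractionation at days 7 and 14, and 7422.5 in the control.

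A small group of cells with many of the contractile genes was found outside the named classes. A cluster of 620 cells was led by Cxcl6, Ccl11, Chrdl2 and Pla2g2a and was left unnamed. Its best marker score was for fibroblasts, but more of its leading genes were markers of another class. Its single-dose cells had 14956 CPM of Dcn and 547 CPM of Pdgfra, against 12982 and 273 CPM in named single-dose fibroblasts. All fibroblast markers summed to 37864 CPM, against 64443 CPM in the named ones. Of the cluster's cells, 599 came from the single-dose library, 18 and 3 from the fractionated libraries and 0 from the control. In the single-dose library 12 of its cells formed a sub-cluster with 2153 CPM of Acta2, 4972 CPM of Actg2, 3485 CPM of Cnn1, 6396 CPM of Des and 7846 CPM of Tagln, against 9.30, 5.69, 2.84, 21.2 and 49.6 CPM in the other 587. Their Cnn1 and Actg2 were above the levels of smooth muscle cells of the same library. They also had 4078 CPM of Grem1, which encodes the BMP antagonist gremlin, and 2080.2 CPM of Dcn, against 15321 CPM of Dcn in the other 587. Of the 12 cells 10 had UMIs of 7 or more of the 10 genes, and of the others 1 had 5 and 1 had 0. Their Dcn was uneven, with 107, 39 and 26 UMIs in 3 cells and at most 12 in each of the others, and it was low in the cells with the most contractile UMIs. The sub-cluster was singled out after its values were seen. Counting the whole cluster as fibroblasts brought the median of the 10 genes for the single dose over the control to 1.57, but 12 cells held 86.3% of the UMIs of the 10 genes in that cluster, and Acta2 in the other 587 was at 9.30 CPM, against 16.2 CPM in control fibroblasts.

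Some of the 10 genes were found in cells of other lineages. Des in satellite cells was at 414 CPM after the single dose, 126 and 266 CPM after fractionation at days 7 and 14, and 583 CPM in the control. Skeletal muscle fibres reached the minimum of 50 cells in the control alone, where 63 cells had 1445 CPM of Des, 229.6 CPM of Smtn and 175 CPM of Acta2. Tagln in satellite cells was at 611 CPM after the single dose, 555 and 1038 CPM after fractionation at days 7 and 14, and 819 CPM in the control. Smtn was at 18.4, 47.8 and 29.9 CPM in blood endothelial cells of the irradiated libraries and at 45.9 CPM in those of the control. In lymphatic endothelial cells Actg2 was at 86.7 CPM after the single dose, 44.1 CPM at day 14 and 48.0 CPM in the control, but 1 of 128 single-dose cells held 81.5% of the UMIs of the 10 genes in that class.

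Wider lists give the setting in which the 10 genes moved. They were chosen for their role, although some of their genes, such as Itga8, Tpm2, Ppp1r14a, Casq2 and Myocd, also served to name the cells. Shares of all symbols past 2-fold in smooth muscle cells, given above, were 8.39% higher and 9.55% lower after the single dose, 8.86% and 11.8% after fractionation at day 7, and 8.81% and 2.44% at day 14. In single-dose smooth muscle cells 4 of 9 measured calcium-handling genes were at least 2-fold lower than in the control and 0 higher, with a median log2 ratio of -0.92. Casq2, the calcium-binding calsequestrin of the sarcoplasmic reticulum, was at 75.2 CPM after the single dose, against 171 CPM in the control, and Stim1, which senses calcium in that store, at 55.0 CPM, against 124 CPM. In the fractionated libraries the same list had 0 of 8 higher or lower at day 7, and 1 of 9 higher and 0 lower at day 14, with medians of 0.36 and 0.22. Atp2a2, the calcium pump that Pln holds back, was at 1119.6 CPM at day 7 of fractionation, against 730.4 CPM in the control, a log2 ratio of 0.62 [0.46 to 0.77].

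The apparatus list of 23 further filament and adhesion genes had 0 of 21 measured genes higher and 3 lower after the single dose, with a median of -0.05. Itga8, an integrin subunit of smooth muscle, was at 54.2 CPM after the single dose, against 180.3 CPM in the control. After fractionation at day 7 the list had 0 of 21 higher and 1 lower, and Tpm2, a tropomyosin of the thin filament, was at 3647 CPM, against 7713 CPM in the control. At day 14, 0 of 22 were higher and 0 lower. The tone list of kinase, phosphatase and cyclic GMP genes had 1 of 10 higher and 2 lower after the single dose, and 0 past 2-fold after fractionation. Gucy1a1, a subunit of the nitric oxide receptor, was at 113 CPM after the single dose, against 339 CPM in the control. Ppp1r14a, an inhibitor of the myosin phosphatase, was at 1289 CPM at day 14, against 2449.7 CPM in the control.

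Among the 12 regulators of the contractile program in the files, 0 of 8 measured were higher and 2 lower after the single dose in smooth muscle cells. Myocd, which encodes myocardin, was at 26.4 CPM after the single dose, against 48.6 CPM in the control, a log2 ratio of -0.88 [-1.51 to -0.29]. Mef2c, a transcription factor of muscle cells, was at 217 CPM, against 574 CPM in the control. Klf4, a factor that represses contractile genes in cultured smooth muscle cells and is also an immediate-early gene, was at 89.9 CPM after the single dose and 14.3 CPM after fractionation at day 7, against 613 CPM in the control. At day 7 of fractionation 1 of 8 regulators was higher and 1 lower, and at day 14 2 of 10 were higher and 0 lower.

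Genes of the matrix program of myofibroblasts were counted in the same way. In smooth muscle cells 5 of 15 measured were at least 2-fold higher and 1 lower after the single dose, 3 of 12 higher and 4 lower at day 7 of fractionation, and 7 of 16 higher and 1 lower at day 14. Tnc, the matrix protein tenascin C, was at 158 CPM in single-dose smooth muscle cells, against 4.31 CPM in the control. Ccn2, connective tissue growth factor, was at 425 CPM after the single dose and 115 CPM at day 14, against 54.2 CPM in the control. In pericytes 4 of 16 were higher and 2 lower after the single dose, beside 9.35% and 10.7% of all symbols. At day 14, 4 of 18 were higher and 3 lower, beside 8.19% and 3.26%. At day 7 of fractionation 9 of 13 were higher and 1 lower, beside 11.9% and 12.3% of all symbols, with Tnc at 671 CPM and Postn, the matrix protein periostin, at 178 CPM, against 100 and 49.4 CPM in the control. That count includes the 53 Eln-rich cells, whose sub-cluster was also led by Lox and Fn1, genes of this list. In fibroblasts 6 of 18, 9 of 18 and 6 of 22 measured were higher in the single-dose, fractionated day-7 and day-14 libraries, and 2, 1 and 1 lower. The shares of all symbols in fibroblasts were 7.26%, 13.1% and 9.72% higher and 8.67%, 17.6% and 3.82% lower. The single-dose and fractionated day-7 counts rest on 80 and 56 named fibroblasts, without the Cxcl6-led cluster. Ccn2 in fibroblasts was at 919 CPM after the single dose, 1242 and 254 CPM after fractionation at days 7 and 14, and 81.1 CPM in the control. Acta2 in day-14 fibroblasts was under the background, and its direction against the control differed between the whole class and the shared cluster. Ccn2 over the whole class was higher at day 14, and Cthrc1, a collagen-linked gene, was at 218 CPM, against 65.8 CPM in the control. Cthrc1 was among the leading genes of the Ccn5 and Dkk2 cluster, which had 2054 day-14 cells and 32 control cells.

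The genes whose pattern was most like the mean of the 10 were named by the Pearson correlation of log2(CPM + 1) over 29 sums of a class in a library, among 6198 genes. They were Spink8 with 0.976, Mrvi1 with 0.973, Rbpms2 with 0.970, Slc2a4 with 0.964 and Npy1r with 0.959. In smooth muscle cells Mrvi1 was at 193 CPM after the single dose, 377 and 348 CPM after fractionation at days 7 and 14, and 262 CPM in the control, the same order of libraries as Pln. Spink8 was at 352, 468 and 390.1 CPM in the irradiated libraries and at 417 CPM in the control. The 10 genes themselves had correlations with their own mean of 0.816 for Smtn to 0.985 for Myh11, where the sums share libraries and each gene is part of the mean.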

How the data were processed

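Single cells were measured with a 10x 3′ assay, per the labels' protocols. Tissue had been shipped cold, digested with collagenase and trypsin, and passed through dead cell removal. The authors deposited raw UMI counts per gene and barcode for each library, made with Cell Ranger 5.0.0, per the submitters' processing notes, which name the builds mRatBN7.2 and rn7; which annotation was used is not stated.

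Barcodes under 200 genes or 500 UMIs, or above 20% mitochondrial UMIs, were left out. Scrublet marked 3.08%, 2.22%, 4.18% and 3.86% of the single-dose, fractionated day-7, fractionated day-14 and control cells as doublets, which were left out. Counts were scaled to 10000 per cell and log-transformed, and 2000 variable genes without the 10 contractile genes, 30 principal components, 15 neighbours and Leiden resolution 1.0 gave 34 clusters, of which 28 were named from 20 marker lists. The rule that scores a cluster against the lists was set after the data were seen. Counts were summed per class and library with at least 50 cells and divided by the class total to give CPM. Ratios have exact conditional binomial intervals, levels exact Poisson intervals and shares Clopper-Pearson intervals, all at 95% and for counting error only. A gene was measured in a pair with at least 20 UMIs and, a limit added after the data were seen, at least 3 expected in the smaller library. A count of 0 was taken as up to 3.

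The 10 genes and the wider lists were chosen with earlier results of these data known. The text names all 10 genes, up to 4 genes per wider list and class with the largest fold by the bound nearest to 1 and at least 50 UMIs, and the 5 most alike genes; leading genes of clusters and sub-clusters and the genes of single cells were chosen after their values were seen. Of 291 listed symbols 24 were not matched. Alternatives were a stricter filter (1000 UMIs, 10%), doublets kept, resolution 0.6, the 10 genes used in or the wider lists left out of clustering, cells classed by their own markers, equal weights per cell, median-of-ratios scaling, at least 100 UMIs, and other thinning. The ratio and its interval were tested on simulated counts. Python 3.11.15, numpy 2.4.6, scipy 1.17.1, pandas 2.3.3, scanpy 1.11.5, igraph 0.11.9, leidenalg 0.10.2, scikit-learn 1.9.0 and matplotlib 3.10.9 were used.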

Additional observations from a re-analysis of the deposited data

Results flagged for a closer look

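For 4 results the fractionated library was above the control at day 7 and below it at day 14, with both counting intervals clear of 0. In smooth muscle cells the log2 ratio of Acta2 was 0.74 at day 7 and -0.58 at day 14. In pericytes it was 1.42 and -0.60 for Acta2, and 1.25 and -1.39 for Cnn1. In fibroblasts it was 2.29 and -0.32 for Acta2. Both days share the control of day 7, each is 1 pool, and the difference between the days was not tested. In pericytes at day 7, Acta2 was 0.12 without the 53 Eln-rich cells and their sub-cluster and 1.30 without both contractile sub-clusters, and Cnn1 was -2.89 without the Eln-rich sub-cluster. At day 14 Acta2 in pericytes was 0.25 without both. The fibroblast value at day 7 rested on 1 of 56 cells. That of day 14 pools cells of different clusters, and within the shared Cilp-led cluster Acta2 was at 23.7 CPM at day 14, against 19.9 CPM in the control, so the sign change was not seen there.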

How the results depend on the processing

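No paired analysis was possible because each group is 1 pool and no result comes from a test. Precision was limited most in fibroblasts of the day-7 irradiated libraries, in Cnn1 and Smtn of pericytes, and by the depth of the fractionated day-7 cells. The alternatives that leave out a sub-cluster or count an unnamed cluster were chosen after seeing the data. Lower resolution and a minimum of 100 UMIs left all 12 medians over the 10 genes within their spread. In smooth muscle cells the median for the single dose over the control (-0.18) was -0.23 with stricter filtering, -0.12 with doublets kept, -0.22 with the 10 genes used in clustering, -0.13 without the wider lists, -0.13 by own markers, -0.30 by median-of-ratios scaling and -0.26 without the Rgs5-rich sub-cluster. The median of all symbols there was 0.12, which that scaling takes off. At day 14 (-0.54) it was -0.64 with stricter filtering, -0.48 with doublets kept, -0.67 by median-of-ratios scaling and -0.26 without that sub-cluster. In pericytes the single-dose median (-0.46) was 0.85 by own markers, -0.088 with equal weights, 0.33 with the unnamed pericyte and endothelial cluster and 0.60 without both contractile sub-clusters. For fractionation at day 7 (0.66) it was 0.20 with doublets kept, 0.11 without the wider lists, -0.47 without the Eln-rich sub-cluster and 1.24 with the unnamed cluster. At day 14 (-0.33) it was -0.66 with stricter filtering, -0.63 without the wider lists, 0.37 by own markers, -0.11 with equal weights, 0.20 with the unnamed cluster and 0.33 without both sub-clusters. For fractionation at day 7 over the single dose (1.14) it was 0.70 with doublets kept, 0.10 by own markers, 0.29 without the Eln-rich sub-cluster and 0.29 without both. In fibroblasts the single-dose median (-0.26) was 1.57 with the Cxcl6-led cluster, the day-14 median (-0.12) was 0.062 with equal weights, and that of fractionation over the single dose at day 7 (0.13) was 1.83 without the wider lists and -1.40 by own markers. Called values that changed sign were these. In pericytes Cnn1 was 1.75 for the single dose by own markers, and for fractionation at day 7 -0.043 without the wider lists and -2.89 without the Eln-rich sub-cluster. Actg2 for fractionation at day 7 was -0.81 without that sub-cluster. Over the single dose at day 7, Actg2 was -1.55 by own markers, -1.44 without that sub-cluster and -1.44 without both, and Cnn1 was -0.91 by own markers. In fibroblasts by own markers, Acta2 was -0.54 and Tagln -0.72 for the single dose, and Tagln was -2.93 for fractionation at day 7. The cause was not tested. With the 10 genes used in clustering, single-dose fibroblasts fell under 50 cells, so the 2 fibroblast comparisons with them gave no value. The share of cells with Acta2 moved in 9 of 12 cases without thinning and in 10 of 12 at 500 UMIs.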
